A study of Homo sapiens with 14 samples.

Results

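C/D box small nucleolar RNAs (snoRNAs) were examined in OCI-AML2 cells, an established line from human acute myeloid leukaemia. The genes were chosen by their RiboLace reads: those of annotation type snoRNA whose symbol begins SNORD and which had at least 20 reads summed over the 4 RiboLace libraries. In all, 54 of the 278 SNORD genes in a table of 58037 genes met this rule. RiboLace recovers RNA bound to active ribosomes with a puromycin-like probe. The series held 14 libraries of untransformed read counts: 2 RiboLace and 2 total RNA libraries of Runx1 wt/wt cells, 2 RiboLace libraries of the Runx1 R174*/wt line F3, 4 total RNA control libraries of Runx1 R174*/wt cells (2 of line F3 and 2 of line G7), and 4 total RNA libraries of the same 2 mutant lines after 100 nM homoharringtonine (HHT), an inhibitor of translation elongation, for 8 h. RUNX1 is a transcription factor of blood cell development, and R174* places a stop codon in 1 allele. The wild-type libraries and the RiboLace libraries were labelled as having had no treatment, and the mutant controls as an 8 h control, so genotype and this label cannot be told apart in total RNA. The deposited table's column names instead give the wild-type total RNA and mutant control libraries the same hour, so the labels conflict. All cells grew in alpha-MEM with fetal bovine serum. The labels do not say whether F3 and G7 are single clones or whether replicates were separate cultures; p-values then measure only the spread between these libraries, which may be technical. RiboLace was made from F3 alone, and a single mutant line cannot be told apart from the genotype.

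Sequencing depth differed between the assays: RiboLace libraries held 465052 to 2034796 reads and total RNA libraries 19250789 to 21925693. Of 8 myeloid markers, 6 (CSF3R, SPI1, LYZ, MPO, CEBPA and CD33) averaged at least 5 CPM (reads scaled to library size) in both assays, while KIT had no RiboLace read. Erythroid markers summed to at most 0.0513 and lymphoid markers to at most 1.67 CPM; of 4 adherent-cell genes, COL1A1 accounted for a summed level of 5.76 to 22.7 in RiboLace, and the other 3 had no read there.

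C/D box snoRNAs are short nuclear RNAs that carry a C box near the 5′ end and a D box near the 3′ end, which the proteins fibrillarin (FBL), NOP56, NOP58 and SNU13 bind. The bases beside the D box pair with a target RNA and direct fibrillarin to methylate the 2′-hydroxyl of 1 ribose there. Most targets lie in ribosomal RNA, some in the spliceosomal U6 RNA, and a few snoRNAs, such as the SNORD14 family, also help to cleave the ribosomal RNA precursor. In humans nearly all C/D snoRNAs are cut out of introns of host genes, many of which encode ribosomal proteins or are noncoding genes of the SNHG class. All 54 genes lay inside a host gene, in 39 hosts, and 8 of those hosts held 2 or more, 23 snoRNAs in all. Their lengths ran from 68 to 237 bases with a median of 86.

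The sequences that the results below turn on are printed here so that the boxes can be seen; they are GENCODE 29 transcripts on GRCh38, given 5′ to 3′, with the C box letters TGATGA and the D box letters CTGA in capitals. The first group holds snoRNAs that rose in the mutant RiboLace libraries: SNORD67 (chr11:46762389-46762499, minus strand, in CKAP5), SNORD83A (chr22:39315213-39315307, minus strand, in RPL3), SNORD1B (chr17:76561109-76561192, plus strand, in SNHG16), SNORD104 (chr17:64146083-64146152, plus strand, in SNHG25) and SNORD116-2 (chr15:25054210-25054304, plus strand, in SNHG14).
SNORD67: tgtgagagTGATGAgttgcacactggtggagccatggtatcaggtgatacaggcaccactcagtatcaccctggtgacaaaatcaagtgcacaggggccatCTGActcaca
SNORD83A: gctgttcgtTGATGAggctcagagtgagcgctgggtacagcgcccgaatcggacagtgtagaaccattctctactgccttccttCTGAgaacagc
SNORD1B: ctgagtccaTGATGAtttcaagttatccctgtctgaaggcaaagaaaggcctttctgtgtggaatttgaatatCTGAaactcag
SNORD104: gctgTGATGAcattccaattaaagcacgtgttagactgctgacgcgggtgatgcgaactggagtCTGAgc
SNORD116-2: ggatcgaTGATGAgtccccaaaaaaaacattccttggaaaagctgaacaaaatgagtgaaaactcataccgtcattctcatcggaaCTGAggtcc

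The second group holds 2 that fell there, SNORD12C (chr20:49278940-49279028, plus strand, in ZFAS1) and SNORD14A (chr11:17074654-17074744, minus strand, in RPS13), and SNORD14E (chr11:123058077-123058161, minus strand, in HSPA8), which was nearly lost from total RNA after HHT.
SNORD12C: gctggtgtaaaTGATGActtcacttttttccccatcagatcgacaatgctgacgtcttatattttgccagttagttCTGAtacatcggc
SNORD14A: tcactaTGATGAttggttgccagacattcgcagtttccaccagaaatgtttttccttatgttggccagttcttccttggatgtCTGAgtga
SNORD14E: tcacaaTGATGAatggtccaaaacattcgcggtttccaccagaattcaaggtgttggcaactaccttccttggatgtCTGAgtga

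The last sequence is SNORD8 (chr14:21397292-21397401, minus strand, in CHD8), shown because, like SNORD67, it guides U6 methylation.
SNORD8: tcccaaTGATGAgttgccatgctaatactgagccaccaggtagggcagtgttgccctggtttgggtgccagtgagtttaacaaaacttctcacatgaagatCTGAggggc

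Searched on the sense strand of the transcripts, TGATGA stood in the first 20 bases of 42 of the 54 sequences (77.8%) and CTGA in the last 20 bases of 53 (98.1%). The other SNORD genes had them in 67.6% and 94.1%, and the 147 SNORA genes, the H/ACA box class that guides pseudouridylation, in 0.680% and 8.84%. CTGA and TGATGA share the letters TGA, so a position can start 1 motif and lie in the other. Near-identical copies limit the assignment of reads for 9 of the 54, which lay within 10 edits of another snoRNA gene. SNORD62B was identical to SNORD62A (192 against 1 RiboLace reads), and SNORD116-2 differed from SNORD116-6 by 1 edit (457 against 2 reads); the sources used here do not say how reads that match both copies were counted.

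In RiboLace libraries the C/D snoRNAs were led by SNORD67, which guides methylation of U6, and SNORD83A, for which no target was assigned here. These values describe the reads that chose the genes and were not tested. Levels are CPM, read counts scaled to library size with TMM, a correction for composition made within each assay. SNORD67 had 459 and 521 CPM in the wild-type libraries and 1305 and 1429 in the F3 libraries. SNORD83A had 314 and 249 in wild type and 668 and 914 in F3. Both were higher in both F3 libraries than in either wild-type library, and together they held 34.1% of the 17006 RiboLace reads of the 54 genes. Per kilobase of gene, SNORD67 averaged 8363 CPM over the 4 libraries, SNORD83A 5643, SNORD93 3188, SNORD63 3014, SNORD1B 2935, SNORD20 2079, SNORD72 1349, SNORD104 1320, SNORD116-2 1253 and SNORD8 1082. SNORD93 and SNORD20 guide small-subunit and SNORD63, SNORD1B, SNORD72 and SNORD104 large-subunit ribosomal RNA methylation. The order of SNORD93, SNORD63 and SNORD1B does not exceed their spread between libraries. Nearest to the rule's threshold, SNORD116-24 and SNORD124 had 21 reads, and SNORD91B, SNORD53B and SNORD116-12, each with 13, stayed out.

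**Figure D1:**
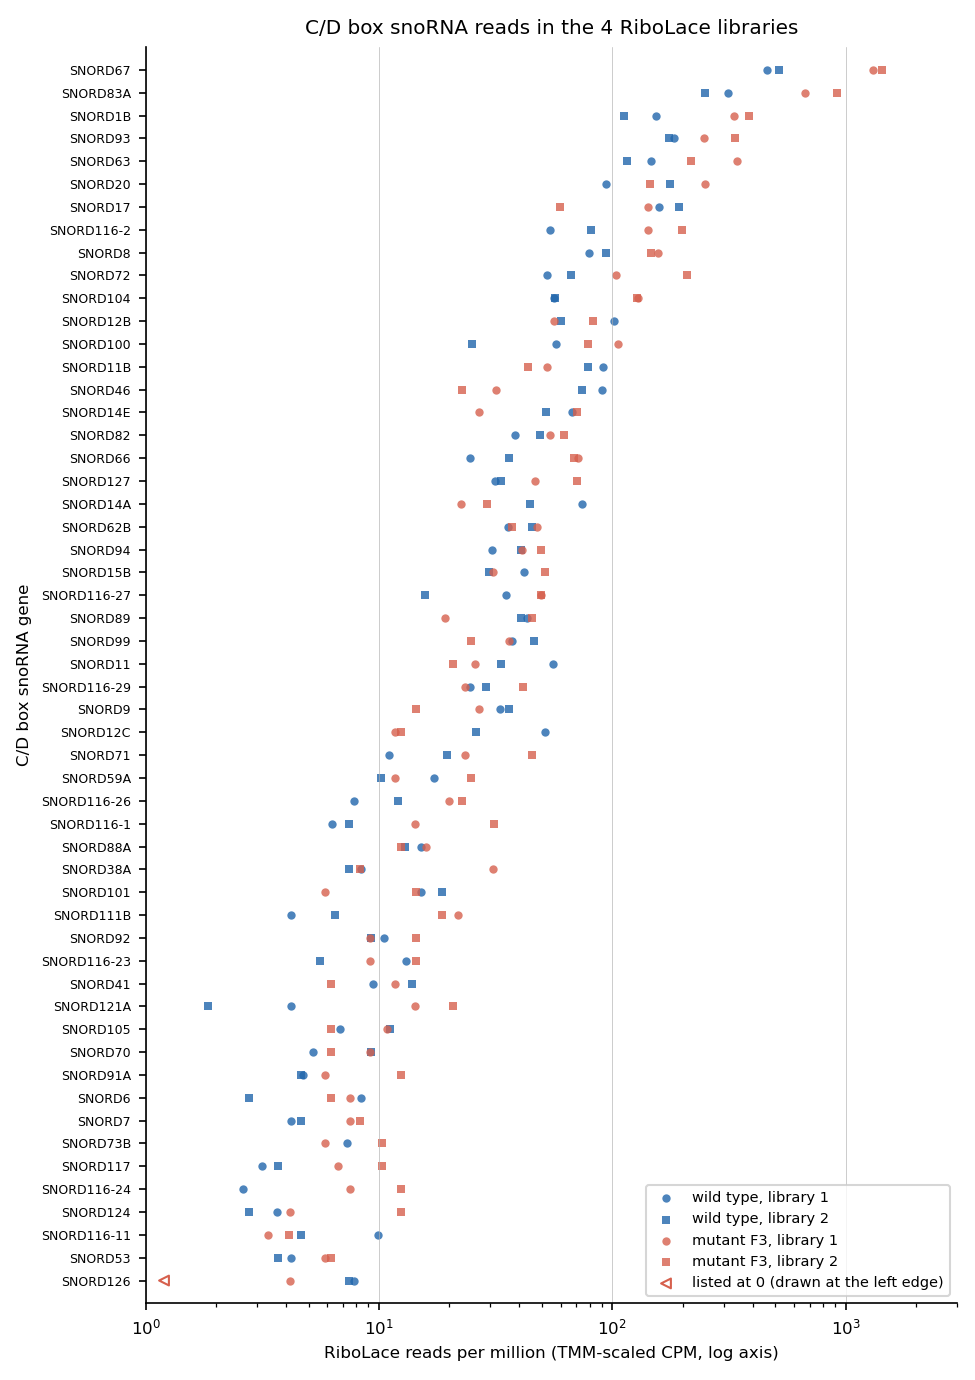
RiboLace CPM (TMM-scaled, log axis) of the 54 C/D box snoRNA genes, ordered by their mean over the 4 libraries, with wild-type libraries in blue and mutant F3 libraries in red. SNORD67 stands at the top, between 459 and 1429, and SNORD126 is listed at 0 in 1 F3 library, drawn at the left edge.

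These RNAs had few reads in the total RNA libraries. Protein-coding genes took 98.2% ± 0.0587 of wild-type total RNA reads and 76.2% ± 2.41 of wild-type RiboLace reads (SD, n = 2). How fully the total RNA libraries captured small RNAs is not known, so these values do not give the level in the cells. Over the 10 total RNA libraries, 6 of the 54 had no read and 26 had 10 or more. The 54 genes took 0.280% ± 0.0108 (SD, n = 2) of reads in wild-type RiboLace and 0.00146% ± 2.04e-05 (SD, n = 2) in wild-type total RNA. In F3 RiboLace they took 0.523% ± 0.0501 (SD, n = 2). Other classes of small RNA had few reads in the total RNA libraries too. In wild type, SNORA genes took 0.524% of RiboLace and 0.00115% of total RNA reads. The shares were 2.87% and 0.00092% for snRNA genes and 2.24% and 0.00218% for misc_RNA genes. On TMM-scaled values the summed level in RiboLace was 185.6 times that in total RNA in wild type and 399.6 times in F3, and without SNORD104 330.7 and 575.3 times. The rule chose genes by RiboLace reads and the libraries of the 2 assays may have been prepared differently, so these ratios carry no test.

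The ratio was uneven between snoRNAs. Among the 22 genes with more than 3 wild-type total RNA reads it ran from 8.12 for SNORD104 to 4782 for SNORD67, with a median of 134. In F3, with 22 such genes, it ran from 21.8 for SNORD101 to 6528 for SNORD67, with a median of 139. Left out were 13 genes with 0 and 19 with 1 to 3 total RNA reads in wild type, and 15 and 17 in F3. Those 19 ran from 65.4 for SNORD73B and SNORD124 to 5445 for SNORD1B, the last from 1 read (95% counting interval 972 to 215569). The medians thus do not describe all 54. SNORD67 rested on 4 total RNA reads in wild type and 8 in F3 controls, and SNORD104 on 263 and 159. SNORD104 was the most abundant of the 54 in total RNA, at 6.94 ± 1.61 CPM (SD, n = 2) in wild type, followed over the 10 libraries by SNORD14E, SNORD100, SNORD17 and SNORD14A, at 1.23 ± 0.0458, 0.752 ± 0.209, 0.517 ± 0.187 and 0.642 ± 0.364 CPM in wild type (SD, n = 2).

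To ask how these RNAs differed between genotypes in RiboLace, the F3 and wild-type libraries were compared with edgeR's quasi-likelihood test over all genes. Adjustment was by Benjamini-Hochberg, with a call at adjusted p under 0.05. Whether the snoRNA reads came from RNA bound to ribosomes was not tested. Of the 54 snoRNAs, 43 passed the filter on low counts and 16 were called, 13 higher and 3 lower in F3. The background was 11.8% of 9805 genes tested, 6.18% higher and 5.59% lower. The filter asked for at least 8.90 CPM by library totals in 2 of the 4 libraries, so a snoRNA could enter through the genotype where it was high. SNORD111B, SNORD121A and SNORD116-1 reached that level in the F3 libraries alone and so had to differ; the other 10 that rose and the 3 that fell reached it in libraries of both genotypes. The count describes the 43 only. Their median log2 fold change was 0.25, against -0.01 for all genes tested. In each of the 16 the 2 libraries of a genotype did not overlap those of the other, which also held for 57.9% of all genes tested. In these bulk libraries, fewer cells holding an RNA and less RNA per cell cannot be told apart.

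The snoRNAs that rose included 2 guides of U6. SNORD67, with the library values above, rose by 1.48 ± 0.31 (log2 fold change ± SE, adjusted p = 0.00245, edgeR). SNORD8 had 79.1 and 93.7 CPM in wild type and 156 and 147 in F3, and rose by 0.82 ± 0.26 (adjusted p = 0.0365, edgeR). The other U6 guides tested did not pass: SNORD9 had 33.0 and 36.2 against 26.7 and 14.5 CPM, a log2 fold change of -0.62 ± 0.36, and SNORD94 one of 0.34. For SNORD9 both F3 libraries lay below both wild-type libraries, the reverse of SNORD8 from the same host, whose own log2 fold change was 0.44 ± 0.26 (adjusted p = 0.282, edgeR).

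Of 13 guides of the large ribosomal subunit tested, 6 rose and 2 fell; the 6 include SNORD111B and SNORD121A, which passed the filter through the F3 libraries alone, and 4 others. SNORD1B had 154 and 112 CPM in wild type and 333 and 387 in F3, and rose by 1.42 ± 0.27 (adjusted p = 0.00108, edgeR). SNORD104 had 56.0 and 56.6 against 129 and 128, from 107 and 61 against 154 and 62 reads. Counts this low vary by more than these values did, so their closeness is no measure of precision. SNORD104 rose by 1.19 ± 0.27 (adjusted p = 0.00433, edgeR). SNORD72 had 52.4 and 66.8 against 104 and 209 (adjusted p = 0.0036, edgeR). For these 3 snoRNAs every F3 library exceeded every wild-type library. SNORD63 rose by 1.10 ± 0.28. SNORD111B and SNORD121A rose by 1.99 ± 0.52 and 2.30 ± 0.60 from few reads, 8 and 7 against 26 and 9 for SNORD111B and 8 and 2 against 17 and 10 for SNORD121A. The 2 that fell were SNORD46, from 90.1 and 74.2 to 31.8 and 22.7 CPM, a log2 fold change of -1.54 ± 0.32 (adjusted p = 0.00202, edgeR), and SNORD12C, from 51.3 and 26.0 to 11.7 and 12.4, one of -1.73 ± 0.41 (adjusted p = 0.00662, edgeR).

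Of 13 small-subunit guides tested, 2 rose and 1 fell. SNORD100 had 57.6 and 25.1 CPM in wild type and 106 and 78.6 in F3 (log2 fold change 1.13 ± 0.32, adjusted p = 0.0188, edgeR), and SNORD66 had 24.6 and 36.2 against 71.1 and 68.2 (1.23 ± 0.31, adjusted p = 0.0107, edgeR). SNORD14A, of the family that also acts in precursor cleavage, fell from 73.9 and 44.5 to 22.6 and 28.9 (log2 fold change -1.27 ± 0.35, adjusted p = 0.0157, edgeR). Its relative SNORD14E overlapped between genotypes, at 67.0 and 52.0 against 26.7 and 70.3, and did not pass (-0.45 ± 0.35). SNORD93 and SNORD20, high in all 4 libraries, had log2 fold changes of 0.69 ± 0.27 and 0.59 ± 0.30 that did not pass (adjusted p = 0.0839 and 0.188, edgeR). Outside the assigned guides, SNORD83A rose by 1.48 ± 0.30 (adjusted p = 0.00154, edgeR).

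The SNORD116 copies come from the imprinted 15q11 region, where loss of the paternal copies is tied to Prader-Willi syndrome, and have no known ribosomal RNA target. Of 8 copies with at least 20 RiboLace reads, 6 were tested and 2 rose, SNORD116-1 among them having passed the filter through the F3 libraries alone. SNORD116-2 had 53.9 and 80.7 CPM in wild type and 143 and 199 in F3 (1.34 ± 0.28, adjusted p = 0.00204, edgeR). SNORD116-1, 4 edits from it in sequence, had 6.29 and 7.42 against 14.2 and 31.0 (1.59 ± 0.52, adjusted p = 0.0436, edgeR). The log2 fold changes of the other 4 lay above 0 without passing, from 0.15 for SNORD116-23 to 1.13 for SNORD116-26. The 2 copies too low for the test went opposite ways: SNORD116-11 had 9.95 and 4.64 CPM in wild type and 3.34 and 4.14 in F3, and SNORD116-24 had 2.62 and 0.928 against 7.52 and 12.4. Their common host transcript, SNHG14, rose by 1.65 ± 0.32 (adjusted p = 0.00118, edgeR).

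**Figure D2:**
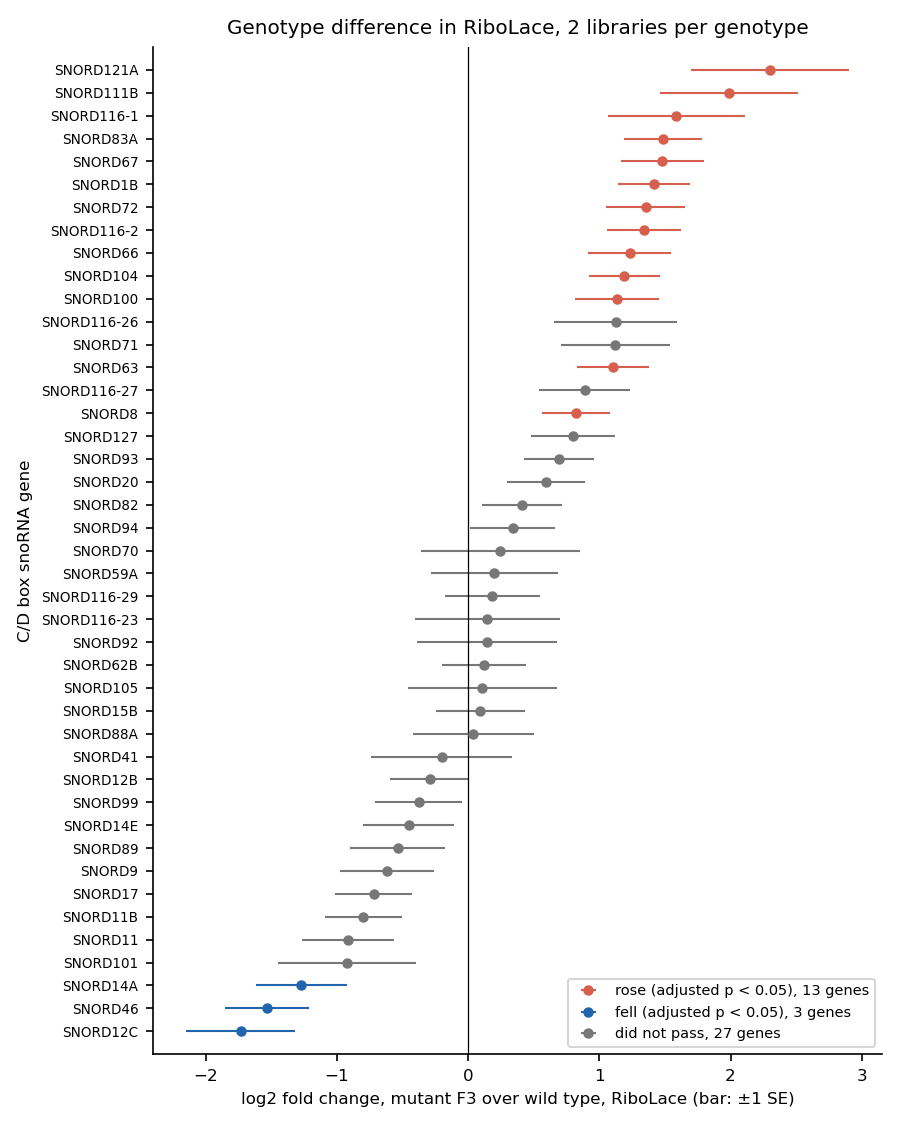
Log2 fold change of mutant F3 over wild type in RiboLace for the 43 C/D box snoRNAs tested, each with a bar of 1 SE on either side; red marks those that rose, blue those that fell and grey those that did not pass. The values run from -1.73 for SNORD12C to 2.30 for SNORD121A.

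snoRNAs of 1 host differed in their calls. In RPS12, a ribosomal protein gene, SNORD100 rose and SNORD101 had a log2 fold change of -0.92 ± 0.53. In ZFAS1, a noncoding host, SNORD12C fell and SNORD12B had -0.29 ± 0.30. Differences between snoRNAs of a host were not tested. By kind of host, 3 rose and 2 fell of 7 tested from ribosomal protein genes, 6 rose and 0 fell of 24 from other coding genes, and 4 rose and 1 fell of 12 from noncoding genes. Over all genes tested, 6.18% were higher and 5.59% lower. SNORD111B and SNORD121A, from other coding genes, and SNORD116-1, from a noncoding gene, passed the filter through the F3 libraries alone. A difference between kinds of host was not tested.

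Of the 39 host genes, 37 were tested in the same libraries, 3 rose (SNHG14, DDX39B and PRRC2B) and 2 fell (RPS13 and RNF149), beside 6.18% of all genes tested higher and 5.59% lower. RPS13, the host of SNORD14A, fell by 1.10 ± 0.29 (adjusted p = 0.0125, edgeR), and SNHG14 rose, as did 2 of its 8 snoRNAs. The hosts of SNORD67, SNORD83A and SNORD1B had log2 fold changes of 0.01, -0.06 and 0.00. Over 42 snoRNAs in 31 hosts, Pearson's r between the log2 fold changes of snoRNA and host was 0.35, and 0.31 over the 36 outside SNHG14; this is a description across genes that share libraries and hosts, not replicates.

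**Figure D3:**
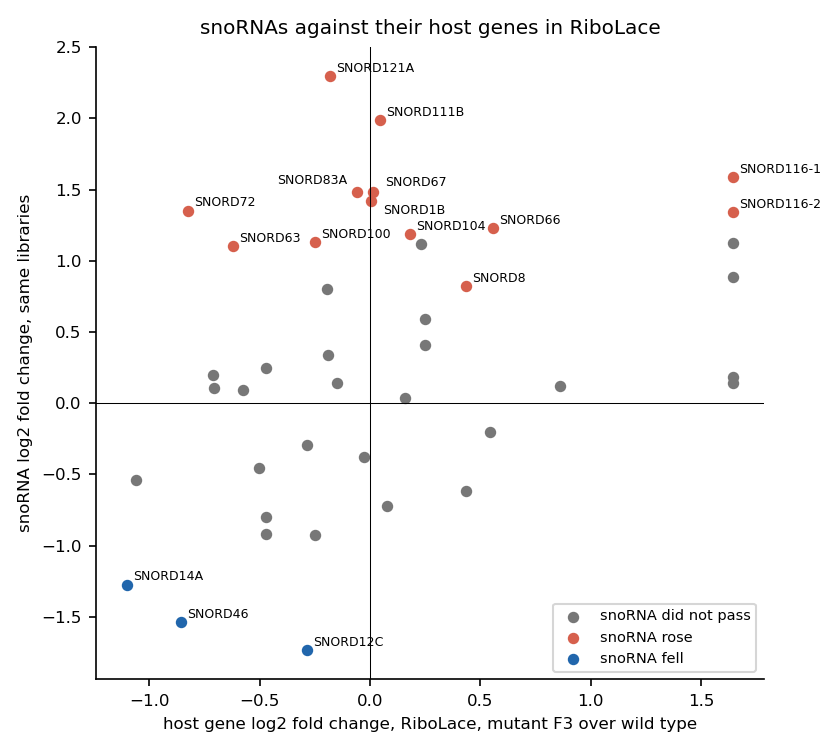
Log2 fold change of each C/D box snoRNA (vertical axis) against that of its host gene (horizontal axis), mutant F3 over wild type in RiboLace, for 42 snoRNAs in 31 hosts; snoRNAs that passed are named. SNORD67, SNORD83A and SNORD1B stand near 0 on the host axis and near 1.5 on the snoRNA axis.

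Other RNA classes moved in the same libraries. The H/ACA snoRNAs with at least 20 RiboLace reads had 26 of 38 tested higher and 0 lower in F3, with a median log2 fold change of 1.24, and SNORA genes took 0.524% ± 0.0232 of wild-type and 1.33% ± 0.183 of F3 RiboLace reads (SD, n = 2). Of 12 scaRNAs, which guide modification in Cajal bodies, 2 rose. Reads on misc_RNA genes took 2.24% ± 0.492 and 3.43% ± 0.203, on lincRNA genes 0.385% ± 0.0550 and 0.917% ± 0.282, and on snRNA genes 2.87% ± 0.841 and 2.67% ± 0.343 (SD, n = 2). The single gene MIR6087 took 9.63% ± 2.53 of wild-type and 6.82% ± 3.08 of F3 RiboLace reads (SD, n = 2). The part of these shares in the C/D result was not tested. When libraries were instead scaled to the summed SNORD reads, which moved the median of all genes by -0.81, 13 of the 43 were called, 1 higher (SNORD121A) and 12 lower, and the sign turned negative for 15 of the 30 with a log2 fold change above 0, among them SNORD8, SNORD93 and SNORD20.

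Calls changed with single libraries. SNORD1B, SNORD104 and SNORD46 were the only 3 of the 16 called in each of the 4 fits that left out 1 library. The number called was 8 without wild-type library 1, 19 without wild-type library 2, 10 without F3 library 1 and 9 without F3 library 2. DESeq2 called 8 of the 16, left 4 uncalled (adjusted p 0.0587 to 0.0995) and gave no adjusted p for 4.

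In total RNA, which played no part in choosing the genes, the genotype comparison called none of the 8 snoRNAs that passed the filter (edgeR), against a background of 4.56% of 13949 genes tested (2.49% higher, 2.07% lower); 1 had an unadjusted p under 0.05, and DESeq2 and limma-voom also called 0. That snoRNA was SNORD104, with 147 and 116 reads in wild type, 79 and 80 in F3 and 116 and 86 in G7 controls. The G7 libraries reached the wild-type range, and the log2 fold change was -0.55 ± 0.23 (adjusted p = 0.197, edgeR); with F3 as the sole mutant line it was -0.75 and called, and with G7 -0.36 and not called. SNORD14E (23 and 24 reads against 18, 45, 34 and 44) had a log2 fold change of 0.58 ± 0.38 and SNORD94 one of 0.47 ± 0.47, neither passing (adjusted p = 0.415 and 0.616, edgeR). Of the snoRNAs called in RiboLace, only SNORD83A, SNORD104, SNORD100 and SNORD14A had enough reads to be tested in total RNA.

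SNORD104 differed in direction between the assays: higher in both F3 RiboLace libraries and lower in both F3 total RNA libraries than in the wild-type libraries of the same assay. A test chosen after seeing these values, of the F3 effect in RiboLace minus that in total RNA, gave 1.88 ± 0.28 on the log2 scale (adjusted p = 0.00173, edgeR). That fit shared each gene's estimate of spread between the assays, although RiboLace was otherwise fitted apart as more variable. The SE is close to that of the RiboLace effect alone (0.27), so it and the p-value may be too small. SNORD104 was the only one of the 54 snoRNAs called in that fit, which called 1.49% of 15338 genes. Of the others, 15 had no read in the F3 total RNA controls.

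After HHT, 3 of the 4 snoRNAs that could be tested in mutant total RNA fell, SNORD14E, SNORD104 and SNORD100 (edgeR with line as a covariate), against a background of 39.3% of 13621 genes lower and 39.9% higher, 79.2% in all, so a called gene was the rule. SNORD14E had 18, 45, 34 and 44 reads in the 4 control libraries and 0, 1, 1 and 1 after HHT, with no overlap. On CPM by library totals the control level was 49.6 times the HHT level (95% counting interval 16.6 to 243), and the log2 fold change was -5.63 ± 0.51 (adjusted p = 1.49e-07, edgeR). Its host HSPA8, a constitutive heat shock protein gene, fell by 1.04 ± 0.07.

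SNORD104 had 79, 80, 116 and 86 reads in controls and 44, 43, 63 and 43 after HHT, all 4 below the lowest control (log2 fold change -1.21 ± 0.17, adjusted p = 1.53e-05, edgeR), beside a fall of its host SNHG25 by 1.40 ± 0.21. SNORD100 had 15, 17, 19 and 13 reads and then 7, 7, 6 and 3, again without overlap (-1.77 ± 0.33, adjusted p = 0.000209, edgeR), and its host RPS12 fell by 0.65 ± 0.06. SNORD17, a large-subunit guide in SNX5, had 15, 7, 15 and 11 against 14, 7, 14 and 7 reads, which overlapped (-0.50 ± 0.37, adjusted p = 0.228, edgeR). The 3 calls held in all 8 fits that left out 1 library. Scaled to summed SNORD reads, which moved the median of all genes by 1.47, SNORD14E was the 1 lower call, and SNORD104 stood at 0.25 and SNORD17, called higher, at 0.94. A difference between lines F3 and G7 in the HHT effect, tested after seeing the data, was called for 0 of the 4 (4.2% of genes tested; adjusted p 0.704 to 0.937, edgeR; 0 of the 4 had an unadjusted p under 0.05).

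**Figure D4:**
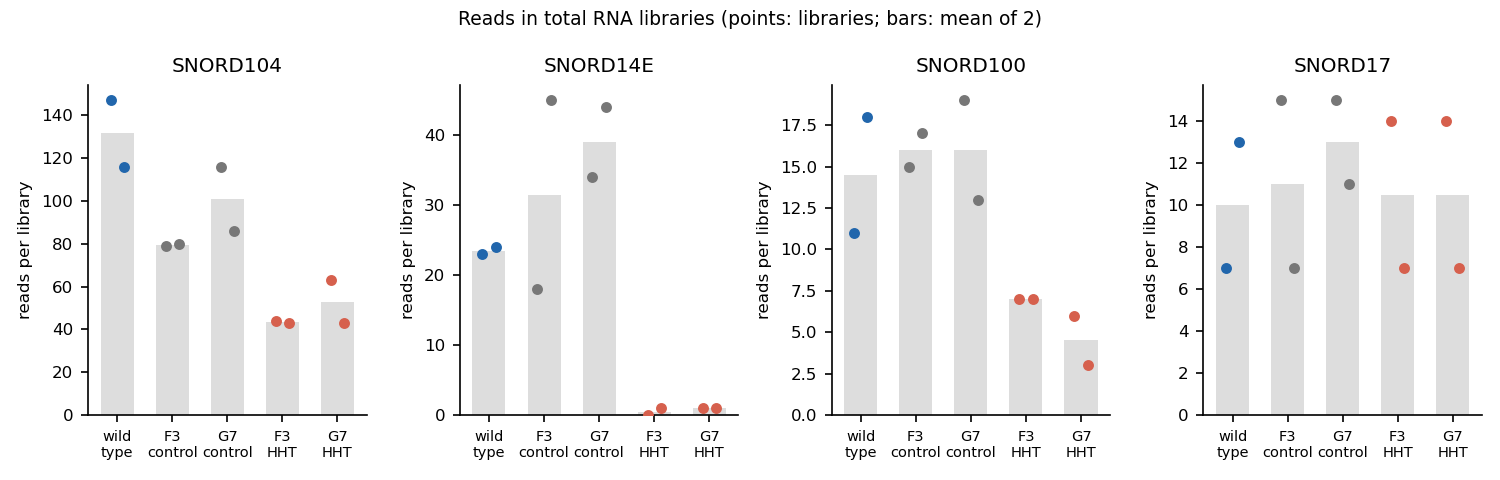
Reads per total RNA library of SNORD104, SNORD14E, SNORD100 and SNORD17 in wild type, in F3 and G7 controls and in F3 and G7 after HHT; points are libraries and bars the mean of 2, on axes that start at 0. SNORD14E falls to 0 or 1 read in each HHT library, and SNORD17 overlaps between control and HHT.

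The other 50 snoRNAs were too low for the HHT test and are described by reads summed over 4 libraries and scaled to library totals. Of these, 38 were lower after HHT, 4 were higher and 8 had no read in either group. The 38 include SNORD1B, with 2 reads in each group, and SNORD116-27, SNORD71 and SNORD92, each with 1 control read and 0 after HHT. Among genes with enough reads to be tested, 61.9% of those called on library totals were higher after HHT. A share over genes as low as these 50 is not given here, so the counts describe these snoRNAs only. The higher ones were SNORD12C, with 7 control and 12 HHT reads, SNORD89, with 3 and 8, SNORD66, with 0 and 2, and SNORD105, with 0 and 1. Among the 20 untested snoRNAs with at least 10 reads over both groups, 18 were lower and 2 higher. SNORD94 went from 36 to 5 reads, and its control level was 7.60 times that after HHT (95% counting interval 2.97 to 24.8). SNORD59A went from 23 reads to 1 (24.3 times, 3.94 to 999) and SNORD91A from 20 to 2 (10.5 times, 2.56 to 93.1). All 54 together took 0.00139% ± 0.000288 of control and 0.000581% ± 0.000122 of HHT reads (SD, n = 4). SNORA genes went from 0.00105% ± 0.000188 to 0.000572% ± 0.000178 (SD, n = 4). The share of scaRNA genes went from 0.000236% to 0.000158% and that of snRNA genes from 0.000996% to 0.000851%. Reads on lincRNA genes went the other way, from 0.302% to 0.353%.

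Genes for the proteins of the C/D particle and its assembly had no call between genotypes. Over all genes tested, 11.8% were called in RiboLace and 4.56% in total RNA, so a count of 0 in lists this short says little. Of 5 core proteins (FBL, NOP56, NOP58, SNU13 and RRP9, the last specific to the U3 particle), 0 passed in either genotype comparison with edgeR, DESeq2 or limma-voom. At an unadjusted p under 0.05 (edgeR) stood 0 of them in RiboLace and 1 in total RNA, NOP58 with a log2 fold change of -0.30 ± 0.12. Of 13 assembly and maturation factors, among them NAF1 and SHQ1, which serve H/ACA particles, 0 passed with any of these 3 tools, and 3 in RiboLace and 2 in total RNA had an unadjusted p under 0.05 (edgeR). After HHT, 3 of 5 core genes rose, NOP56 by 0.86 ± 0.06, NOP58 by 0.77 ± 0.07 and RRP9 by 0.54 ± 0.06, while FBL, the methyltransferase, fell by 0.69 ± 0.06 and SNU13 did not pass. These counts stand beside 39.9% of all genes tested higher and 39.3% lower. Of the 13 assembly factors 11 rose, among them NUFIP1, a scaffold of snoRNP assembly, by 1.14 ± 0.07, and RUVBL2, an ATPase of the R2TP complex, fell by 0.66 ± 0.06. Of 39 host genes, 0 passed in the total RNA genotype comparison with edgeR, DESeq2 or limma-voom, where 3 had an unadjusted p under 0.05 (edgeR), and after HHT 15 rose and 19 fell, against the same shares of all genes. The H/ACA core had 1 of 4 lower in F3 RiboLace, NOP10, by 1.17 ± 0.28 (adjusted p = 0.00764, edgeR), beside 5.59% of all genes tested there.

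Which SNORD genes had reads at all went with their overlap with exons in GENCODE 29. Outside the SNORD113 to SNORD116 clusters, 59 of 72 SNORD genes with no same-strand exon of another gene over them had a read in some library and 41 met the rule. Of 71 lying wholly inside such an exon, 1 had any read, SNORD8, inside a retained-intron exon of CHD8. Of 18 partly covered, 9 had a read and 4 met the rule. In SNHG1 5 of 6 and in RPL13A 4 of 4 SNORD genes were wholly covered. None of these 10 met the rule, although the hosts had 1348 and 3148 RiboLace reads. Both hosts have 0 uncovered SNORD genes, so they cannot show a split. ZFAS1 and HSPA8 hold both kinds. In ZFAS1 the 2 uncovered genes met the rule and the 1 covered gene had no read. In HSPA8 the 1 uncovered gene met it and the 2 covered genes had no read. The sources used here do not give how reads on overlapping features were counted, and a gene listed at 0 cannot be read as absent. snoRNAs of GAS5 were not analysed here.

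**Figure D5:**
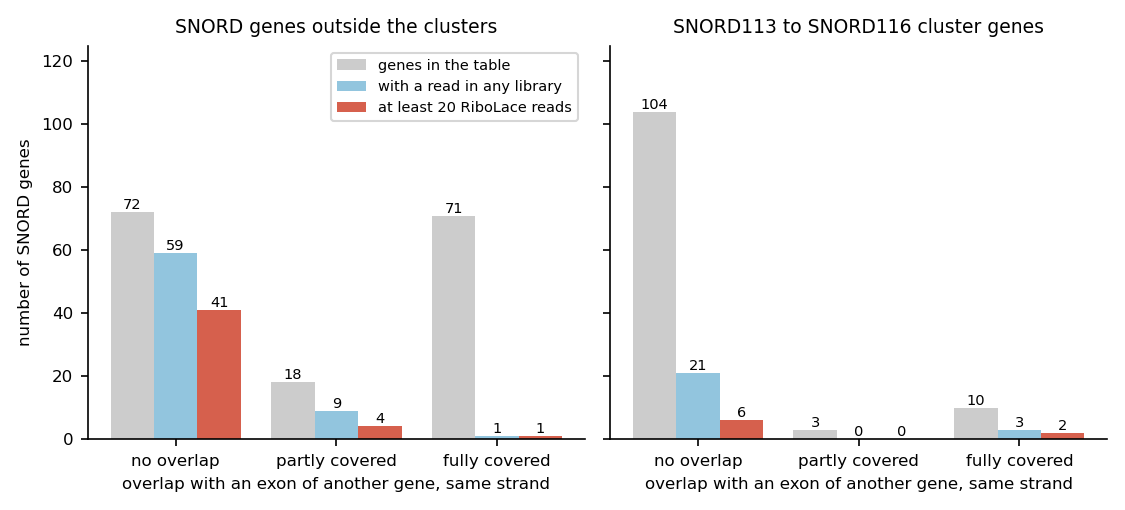
Number of SNORD genes by overlap with a same-strand exon of another gene in GENCODE 29, outside the SNORD113 to SNORD116 clusters (left) and within them (right); grey bars count genes in the table, blue those with a read in any library and red those with at least 20 RiboLace reads. Outside the clusters, 1 of 71 wholly covered genes and 59 of 72 uncovered genes have a read.

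In the imprinted clusters the SNORD113 and SNORD114 copies at 14q32 and the SNORD115 copies at 15q11 had no read in any library, also where no exon covered them, whereas 24 of the 30 SNORD116 copies had one. Of 6 SNORD116 copies wholly inside a same-strand exon, 3 had a read and 2 met the rule. These were SNORD116-27 and SNORD116-26, with 167 and 63 RiboLace reads, so the split by exon overlap was weaker there. Of the SNORD genes that act in precursor cleavage, SNORD14A and SNORD14E met the rule, with 230 and 250 RiboLace reads.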

How the data were processed

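Total RNA and RiboLace RNA were sequenced in 14 libraries. The authors deposited 1 table of raw read counts per gene. The submitters' processing notes list GRCh38, STAR 2.6.0b and DESeq2 without roles; the counting program, its annotation, strandedness and the RiboLace library preparation are not given in the sources. Of 58037 gene IDs, 57433 matched GENCODE 29 (53688 with the same version). How reads on overlapping genes were assigned is not stated.

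The snoRNAs and gene lists were chosen with earlier results of these data known. Named snoRNAs were the 10 highest per kilobase in RiboLace, up to 8 called per comparison by adjusted p (or the 3 smallest p where fewer than 3 were called), the 5 highest in total RNA, up to 3 per list and those at the threshold; further ones were named after their values were seen. Counts were fitted with edgeR 4.0.16 (R 4.3.3; filterByExpr, TMM, glmQLFit, glmQLFTest), separately for 3 comparisons, the HHT one with line as covariate. Alternatives were other scalings, no filter, DESeq2 1.42.0, limma-voom 3.58.1, single lines, left-out libraries and a replicate block. Guide roles came from textbook knowledge. Replicate numbers are those of the sample titles; the deposited table's column names number some control and HHT libraries differently within a line, and those numbers were not used. Control and HHT libraries with the same title number are of the same line. Their deviations from the group mean correlated at 0.49 to 0.64, and other pairs of the same line at 0.34 to 0.60. For each control library the same-numbered pair had the higher value, but for F3 HHT library 1 the other pair did. These deviations hold the difference between lines, so they cannot decide whether libraries were paired by number. The fit used line and no pairing. On simulated counts, edgeR recovered 97.9% of 8-fold and 67.0% of 2.8-fold changes in the RiboLace comparison (9520 genes). Intervals cover counting error only, since no molecular identifiers were stated.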

Additional observations from a re-analysis of the deposited data

Results flagged for a closer look

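SNORD104 had an F3 effect that differed between the assays by 1.88 on the log2 scale (adjusted p = 0.00173, edgeR interaction, 54 snoRNAs in the fit).

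In groups of 4 libraries, 16 sets of values were examined for a sample far from the others, and chance marks about 1 in 20. After HHT, SNORD104 stood apart in 1 G7 library at 2.75 CPM, SNORD14E in 1 F3 library at 0, where the other 3 had 1 read each, and SNORD14A in 1 F3 library at 0.0860 CPM, from 2 reads.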

How the results depend on the processing

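The RiboLace genotype count of 16 C/D snoRNAs fell to 8 with DESeq2 and ran from 8 to 19 over fits that left out 1 library; it was 22 (16 higher, 6 lower) with a replicate block, although same-numbered RiboLace libraries did not deviate together (r = -0.046). Over all genes, DESeq2 called 415 where edgeR called 1154. In total RNA the count of 0 became 1 without the filter, 1 with F3 alone and 1 with the replicate block, and stayed 0 in the fits that left out 1 library. The HHT count of 3 became 12, all lower, without the filter and stayed 3 with the replicate block. With library totals the share of HHT calls that were higher moved from 50.4% to 61.9%, and the 3 snoRNA calls were unchanged in number and direction. Scaled to summed SNORD reads, signs turned for 15 of 43 snoRNAs in RiboLace, among them SNORD8 (-0.0033), SNORD93 (-0.14) and SNORD20 (-0.23), for 1 of 8 (SNORD101) in the total RNA genotype comparison and for 2 of 4, SNORD104 (0.25) and SNORD17 (0.94), after HHT; by construction this scaling sets the class total equal. Signs also turned for SNORD12B (-0.63 to 0.13) and SNORD14E (-1.17 to 0.22) in RiboLace with 1 library left out, and for SNORD83A in total RNA with 1 library left out (-0.065 to 0.28), limma-voom (-0.14) or the replicate block (-0.25); none of these 3 was called in those comparisons. The RiboLace to total RNA ratio of 185.6 in wild type became 192.4 with library totals, 247.8 per protein-coding read, 232.1 over all snoRNA genes, 140.4 without SNORD67 and SNORD83A and 330.7 without SNORD104; that of 399.6 in F3 became 440.4, 567.4, 636.0, 242.1 and 575.3. The last 2 settings were chosen after seeing the data. Total RNA depth limits what can be said of 46 of the 54 snoRNAs, which did not reach the genotype test there.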

Other observations

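Some C/D snoRNAs had reads in total RNA and few or none in RiboLace. The examples here were chosen after their values were seen. SNORD3A, the U3 snoRNA of ribosomal RNA precursor cleavage, had 134 reads over the 10 total RNA libraries and 0 in RiboLace, and SNORD19 had 41 and 0. Of the other SNORD3 genes, SNORD3B-1, SNORD3B-2 and SNORD3C had 11, 5 and 3 total RNA reads and 0 in RiboLace. SNORD3G and SNORD3H went the other way, with 6 and 2 RiboLace reads and 0 in total RNA. Among SNORD116 copies, SNORD116-6 had 22 total RNA and 2 RiboLace reads, and SNORD116-2, 1 edit away, had 457 RiboLace reads. For SNORD3 and SNORD116 genes alike, the sources used here do not say how reads that match more than 1 copy were counted. A count of 0 cannot then be read as absence.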
